A study of Xenopus laevis with 12 samples.

Results

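T-box genes encode transcription factors that bind DNA through a shared domain, the T-box. Members were taken from the annotation of the array, as the probe sets whose gene symbol, with the homeolog ending .L or .S removed, was tbxt (or t), eomes, vegt, or tbx followed by a number. This found 17 of 15611 probe sets, for 10 of 6520 gene names. There were 4 probe sets for tbx5, 2 each for tbx1, tbx3, tbx4 and vegt, and 1 each for eomes, tbx2, tbx6, tbx20 and tbxt. Xenopus laevis is allotetraploid, and .L and .S mark the 2 copies of a gene. 1 tbx5 probe set was annotated to both copies, and for the other probe sets hybridization of RNA from the other copy was not measured.

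RNA came from Xenopus animal caps, the pluripotent roof of the blastula, cut at stage 9 and cultured. Each RNA was from 12 pooled caps. Group C was untreated, and AcRA caps received 10 ng/ml activin with 0.0001 M retinoic acid. lhx1-AS caps came from embryos injected with 800 pg of an antisense oligonucleotide against lhx1 and were untreated, and lhx1-AS/AcRA caps were injected and treated. There were 3 arrays per group, numbered I, II and III after the experiment they came from. A control oligonucleotide was not among the injections for these arrays. On them, a loss of lhx1 function and unspecific consequences of injecting an oligonucleotide cannot be told apart. In whole embryos, the paper reported no effect of a control oligonucleotide on pax8 expression. It also reported a rescue of the kidney field by zebrafish lhx1 mRNA. Labels gave sibling stage 12.5 at harvest, while the paper's text gave a later stage.

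In the early embryo, some T-box factors act downstream of activin and nodal signals. In Xenopus, maternal Vegt starts the formation of endoderm and mesoderm, Eomes and Tbxt (Brachyury) follow in mesendoderm and mesoderm, and Tbx6 acts in presomitic mesoderm. Tbx1 is known for the pharyngeal arches, Tbx2 and Tbx3 act mostly as repressors, Tbx4 and Tbx5 are known for limbs, with Tbx5 also required in the heart, and Tbx20 is a heart factor.

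Values are linear signals (GCOS), scaled by the authors to the same trimmed mean of 500.1 on every array, and arrays in the text are named by group and experiment. The probe set for lhx1 read 19.8, 2.19 and 2.6 in C I, II and III, 316, 823 and 779 in AcRA, 1.55, 42.6 and 3.2 in lhx1-AS, and 1144, 991 and 1614 on arrays with the label lhx1-AS/AcRA. The antisense label thus did not go with lower lhx1 RNA in treated caps (log2 fold change 1.06, SE 1.05, limma adjusted p = 0.62, higher in 3 of 3 experiments), so the label, and not a measured loss, defines those arrays. The table holds no detection calls. After the data had been seen, 17 control probe sets for artificial tag sequences were therefore taken as a gauge of background. Their highest signal was 20.6 to 69.8 over the 12 arrays. Of the 17 T-box probe sets, 1 (tbx3.S) exceeded every tag on all 12 arrays, 7 did so on all arrays of at least 1 group, and 10 did so on all arrays of no group. Where the dimmer group was not above the tags on every array, a fold is given as "at least", with each dimmer array raised to its highest tag signal. It is a bound on the fold between group means of log2 signal, and a single experiment can lie under it. The log2 fold changes of such genes were fitted on the signals as deposited and are no bounds. The epidermal markers of the labelled tissue were present, with 14 of 16 measured and none below the tags on every array.

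In caps treated with AcRA, eomes, vegt and tbx1 rose from background and tbx3 fell. Of the 17 T-box probe sets, 3 were called higher and 1 lower (limma, adjusted p under 0.05), that is 17.6% and 5.88%, where 3.09% and 2.62% of all 15503 tested probe sets were called. The median log2 fold change of the 17 was 0.79, against 0.01 over all probe sets. With every array raised to its highest tag it was -0.39, where the highest tags themselves differed by -0.41, so this median carries no direction above background.

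Eomes (eomes.L) is a T-box activator of mesendoderm genes. In C its signal was 1.73, 2.23 and 48.8 in experiments I, II and III. It was 355, 922 and 128 in AcRA, 38.6, 89.5 and 122 in lhx1-AS, and 4339.9, 4253 and 6873 on arrays with the label lhx1-AS/AcRA. The AcRA arrays did not overlap the C arrays, none of which exceeded its tags, and lhx1-AS/AcRA lay above all other arrays. AcRA against C was at least 8.98-fold (log2 fold change 5.92, SE 1.02, limma adjusted p = 0.0021). By experiment the log2 difference was 7.68 in I, 8.69 in II and 1.39 in III, so experiment III lay under that bound.

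The vegt.L signal was 2.19, 31.1 and 60.2 in C and 448, 2743 and 1214 in AcRA. It was 71.0, 65.8 and 152 in lhx1-AS and 6117, 7299.8 and 8129.9 on arrays with the label lhx1-AS/AcRA. Every AcRA array lay above every untreated array, and every lhx1-AS/AcRA array lay above every AcRA array. AcRA against C was at least 27.9-fold (log2 fold change 6.16, SE 0.93, limma adjusted p = 0.000801), with 1 of 3 C arrays above its tags. The other vegt probe set, vegt.S, read 1.66 to 25.5 in C, 5.82 to 32.0 in AcRA, 3.36 to 36.4 in lhx1-AS and 21.2 to 66.0 in lhx1-AS/AcRA, and passed the test in no comparison.

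For tbx1.L, whose gene is known for pharyngeal development, C read 1.32, 0.692 and 24.4 and AcRA 73.7, 290.1 and 121. lhx1-AS read 2.25, 13.0 and 1.49, and lhx1-AS/AcRA 570.0, 408 and 719. No untreated array, injected or not, exceeded its tags, while all 6 treated arrays did. AcRA against C was at least 3.54-fold (log2 fold change 5.43, SE 1.11, limma adjusted p = 0.00801). The second probe set, tbx1.S, stayed between 1.36 and 72.6 on all arrays and was not called.

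**Figure D1:**
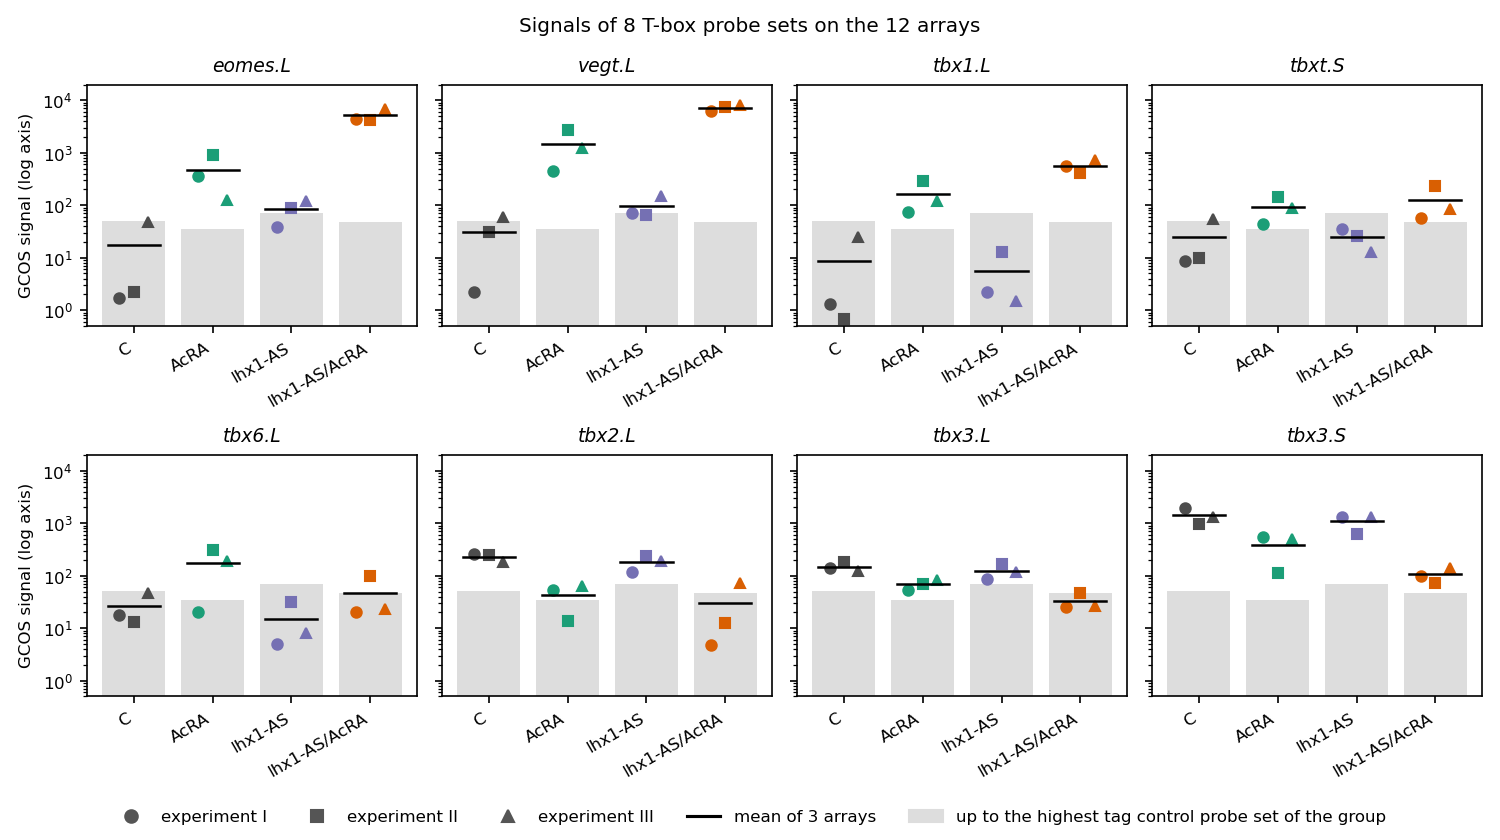
GCOS signal (log axis) of 8 T-box probe sets by group, with the marker shape giving the experiment, the black line the mean of 3 arrays, and the grey band reaching to the highest tag control probe set of the group. The eomes.L, vegt.L and tbx1.L points leave the band in both treated groups, and tbx3.S lies highest in the untreated groups.

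Among the T-box repressors, a fall passed the test for tbx3.S. tbx3.S read 1971, 959 and 1302 in C and 557, 111 and 504 in AcRA. It read 1339, 638 and 1319 in lhx1-AS and 100.2, 73.3 and 143 in lhx1-AS/AcRA. In each of the 3 experiments the treated array was lower than its untreated partner, and AcRA was 4.29-fold below C (log2 fold change -2.10, SE 0.54, limma adjusted p = 0.0323). That call was lost without C I (-1.83, adjusted p = 0.147), C III (-2.13, adjusted p = 0.0927) or AcRA II (-1.35, adjusted p = 0.115). It was lost also in the fit without a variance trend (0.0999), in the fit of the compared groups only (0.0597) and by the methods' t-test (0.0606 unadjusted). With the experiment as a block the adjusted p was 0.000775. The block left the 3 higher calls and raised the lower ones to 2 of 17, where it called 5.29% of all probe sets higher and 5.14% lower.

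tbx3.L read 139, 179.7 and 121 in C, 53.2, 70.0 and 82.5 in AcRA, 85.8, 164 and 119 in lhx1-AS and 25.2, 46.8 and 26.7 in lhx1-AS/AcRA. C and AcRA did not overlap, but the difference did not pass the test (log2 fold change -1.10, SE 0.45, limma adjusted p = 0.224). The closely related repressor tbx2.L read 254, 246 and 185 in C, 53.4, 13.8 and 62.4 in AcRA, 117, 239 and 188 in lhx1-AS, and 4.68, 12.5 and 73.7 in lhx1-AS/AcRA. No treated array reached the lowest untreated one. AcRA against C did not pass without the block (log2 fold change -2.66, SE 0.84, limma adjusted p = 0.0892) and passed with it (adjusted p = 0.0413). It was also called without lhx1-AS/AcRA I (adjusted p = 0.0375) or III (adjusted p = 0.0213), arrays that enter this comparison only through the shared estimate of the spread.

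Brachyury, which marks early mesoderm, did not pass the test in any comparison. tbxt.S read 8.69, 9.95 and 54.4 in C, 43.1, 141 and 89.5 in AcRA, 35.4, 26.3 and 13.1 in lhx1-AS and 56.4, 231 and 85.3 in lhx1-AS/AcRA. All treated arrays were above their tags, against 1 of 6 untreated arrays, namely C III. The log2 fold change of AcRA against C was 2.28 (SE 0.80, limma adjusted p = 0.137), and without C III it was 3.13 (adjusted p = 0.0345). For tbx6.L, whose gene acts in presomitic mesoderm, C read 18.2, 13.2 and 46.6 and AcRA 20.1, 306 and 193, so that AcRA I lay within the C range. lhx1-AS read 4.94, 31.2 and 8.11 and lhx1-AS/AcRA 20.8, 98.3 and 22.8, and no tbx6.L comparison passed the test.

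The remaining probe sets, tbx1.S, the 2 of tbx4, the 4 of tbx5 and that of tbx20, were dim throughout. Their signals ran from 0.513 to 74.1 over all arrays, none passed the test in any comparison, and 2 of them (1 of tbx4 and the tbx5 probe set annotated to both copies) exceeded the tags on no array. Among them tbx5.L had the largest change in AcRA against C (log2 fold change 2.43, SE 0.97, limma adjusted p = 0.214), with a mean signal of 7.22 ± 5.39 in C and 36.0 ± 21.3 in AcRA (SD, n = 3). Signals of this size lay mostly within the range of the tags.

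In injected caps the same treatment was compared with its own control. Arrays labelled lhx1-AS/AcRA against lhx1-AS had 3 T-box probe sets called higher (17.6%) and 3 lower (17.6%), where 4.0% and 4.09% of all probe sets were called. eomes.L was at least 63.8-fold higher (log2 fold change 6.07, SE 1.02, limma adjusted p = 0.00115) and vegt.L at least 78.4-fold (6.32, SE 0.93, adjusted p = 0.000408). tbx1.L was at least 10.8-fold higher (7.29, SE 1.11, adjusted p = 0.000536). On the lower side, tbx3.S was 10.2-fold lower (-3.36, SE 0.54, adjusted p = 0.000829), tbx3.L at least 2.87-fold (-1.91, SE 0.45, adjusted p = 0.0136) and tbx2.L at least 4.03-fold (-3.42, SE 0.84, adjusted p = 0.0179). With the block the same 6 were called, against 6.34% and 6.64% of all probe sets. The 3 rises and the tbx3.S fall held without each array in turn. The tbx2.L call was lost without lhx1-AS II (adjusted p = 0.066), lhx1-AS III (0.0564), lhx1-AS/AcRA I (0.0776) or lhx1-AS/AcRA II (0.0648), and the tbx3.L call without lhx1-AS II (0.0621) or lhx1-AS/AcRA I (0.0549). In the fit of the compared groups only, both calls were lost (adjusted p = 0.052 for tbx2.L and 0.0814 for tbx3.L), and tbx2.L was lost without a variance trend (0.0501).

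**Figure D2:**
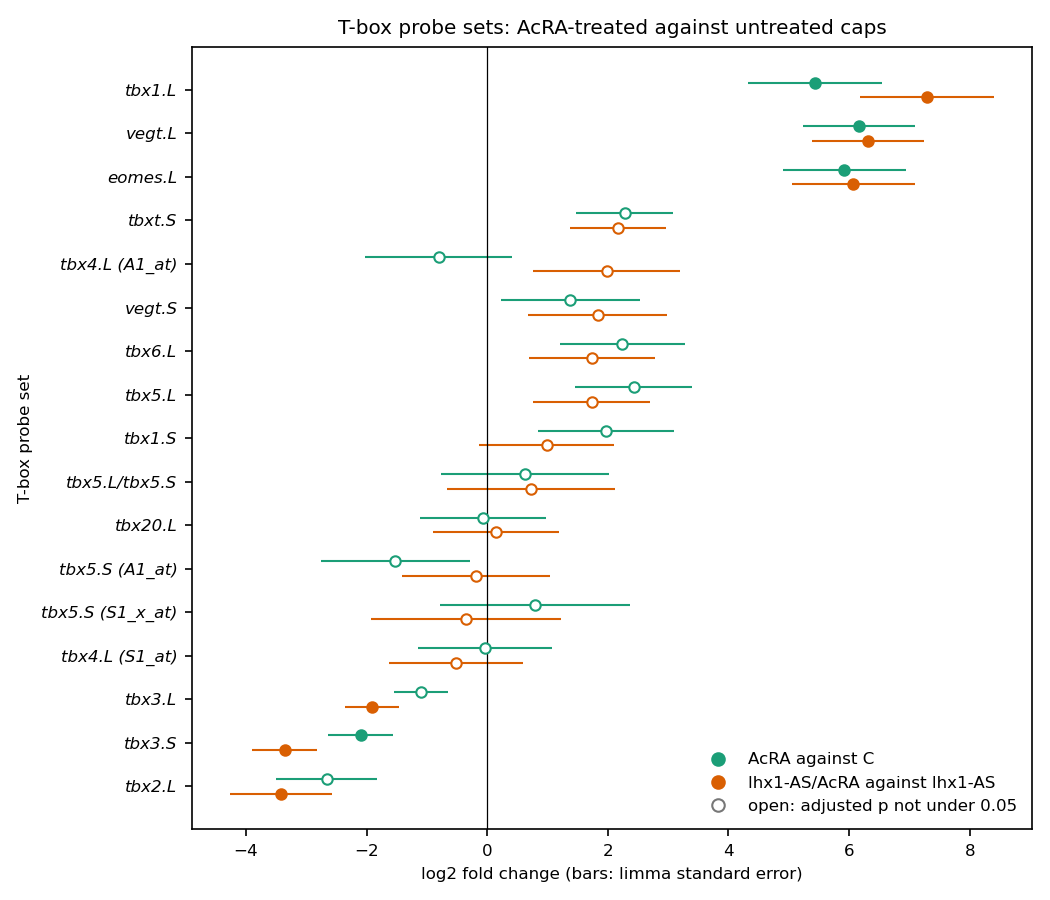
Log2 fold change (points, bars are limma standard errors) of each of the 17 T-box probe sets in AcRA against C and in lhx1-AS/AcRA against lhx1-AS, ordered by the latter, with filled points at adjusted p under 0.05. The fit is that without the experiment as a block. eomes.L, vegt.L and tbx1.L are filled on the right in both, and tbx3.S on the left in both, while tbx2.L and tbx3.L are filled only in the injected comparison.

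Whether the response to AcRA differed between injected and uninjected caps was tested directly. No T-box probe set passed (limma, 0 called, and 0 at an unadjusted p under 0.05, where 0.168% of all probe sets were called higher and 0.271% lower). With the experiment as a block 0 were called, against 0.671% of all probe sets higher and 0.871% lower, and 1 higher and 1 lower had an unadjusted p under 0.05. The difference of log2 responses was 0.14 (SE 1.44) for eomes.L, 0.16 (SE 1.31) for vegt.L, 1.86 (SE 1.57) for tbx1.L, -1.25 (SE 0.76) for tbx3.S, -0.81 (SE 0.63) for tbx3.L and -0.76 (SE 1.18) for tbx2.L. For eomes.L and vegt.L the untreated arrays lay near the tags. After adding 64 to every signal the difference was 2.71 for eomes.L (limma adjusted p = 0.0642) and 1.80 for vegt.L (adjusted p = 0.35), so the size of these differences depends on the treatment of low signals. Without the block, tbx2.L and tbx3.L passed in the injected comparison and not in AcRA against C, but the difference between these comparisons did not pass.

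Injected and uninjected treated caps were then set side by side. In lhx1-AS/AcRA against AcRA, 1 T-box probe set was called higher (5.88%) and none lower, where 2.7% and 6.94% of all probe sets were called, and 2 lower had an unadjusted p under 0.05. The shares over all probe sets were 4.75% higher and 4.84% lower with arrays scaled to 1 median. With the experiment as a block 2 were called higher and 1 lower, against 6.98% and 11.9% of all probe sets. eomes.L was 14.5-fold higher in caps labelled lhx1-AS/AcRA (log2 fold change 3.85, SE 1.02, limma adjusted p = 0.0271), higher in 3 of 3 experiments. The eomes.L call was lost without AcRA I (adjusted p = 0.0813), AcRA III (0.12) or lhx1-AS/AcRA I (0.0599), II (0.0597) or III (0.0955), with log2 fold changes from 3.14 to 3.97.

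vegt.L was 6.24-fold higher in the same comparison and did not overlap between the groups (log2 fold change 2.64, SE 0.93, limma adjusted p = 0.0953, 0.0175 with the block). It was called without C I (adjusted p = 0.00828). tbx1.L was 4.02-fold higher and did not overlap either, but did not pass (2.01, SE 1.11, limma adjusted p = 0.318, 0.233 with the block), and after adding 16 to each signal it did (1.87, adjusted p = 0.0196). tbx3.S was 3.09-fold lower (-1.63, SE 0.54, limma adjusted p = 0.0755, 0.00339 with the block), and AcRA II, at 111, lay among the lhx1-AS/AcRA arrays. Without AcRA II its log2 fold change was -2.38 (adjusted p = 0.00391). tbx3.L was lower in 3 of 3 experiments without overlap, at least 1.63-fold, and did not pass (-1.09, SE 0.45, limma adjusted p = 0.157, 0.0576 with the block). tbxt.S (0.34, SE 0.80), tbx6.L (-1.56, SE 1.04) and tbx2.L (-1.14, SE 0.84) overlapped between the groups.

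Without treatment, lhx1-AS against C had 1 T-box probe set called higher (5.88%) and none lower, where 2.52% and 4.47% of all probe sets were called, and no lower one had an unadjusted p under 0.05. With arrays scaled to 1 median the shares over all probe sets turned to 5.08% higher and 3.08% lower. The T-box call was eomes.L (log2 fold change 3.71, SE 1.02, limma adjusted p = 0.0408), higher in 3 of 3 experiments, although the lowest lhx1-AS array, at 38.6, lay under C III, at 48.8. Only 2 of 3 lhx1-AS arrays and no C array exceeded their tags. The call was lost after adding 16 (1.75, adjusted p = 0.0942) or 64 (0.86, adjusted p = 0.292), and in 8 of 12 fits without 1 array. These were without C I (adjusted p = 0.161), C II (0.129), AcRA I (0.0514), lhx1-AS II (0.109) or III (0.132), and lhx1-AS/AcRA I (0.0512), II (0.0556) or III (0.0511). vegt.L was higher in 3 of 3 experiments and did not overlap between the groups (2.48, SE 0.93, limma adjusted p = 0.128, 0.0259 with the block). Only 1 of 3 C and 2 of 3 lhx1-AS arrays exceeded their tags. The vegt.L value was 1.04 without C I (adjusted p = 0.403), which read 2.19, and 0.76 after adding 64 (adjusted p = 0.358). With the block 2 T-box probe sets were called higher and 0 lower, against 7.41% and 10.4% of all. For the repressors, tbx3.S (-0.38, SE 0.54), tbx3.L (-0.28, SE 0.45) and tbx2.L (-0.38, SE 0.84) overlapped between lhx1-AS and C.

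**Figure D3:**
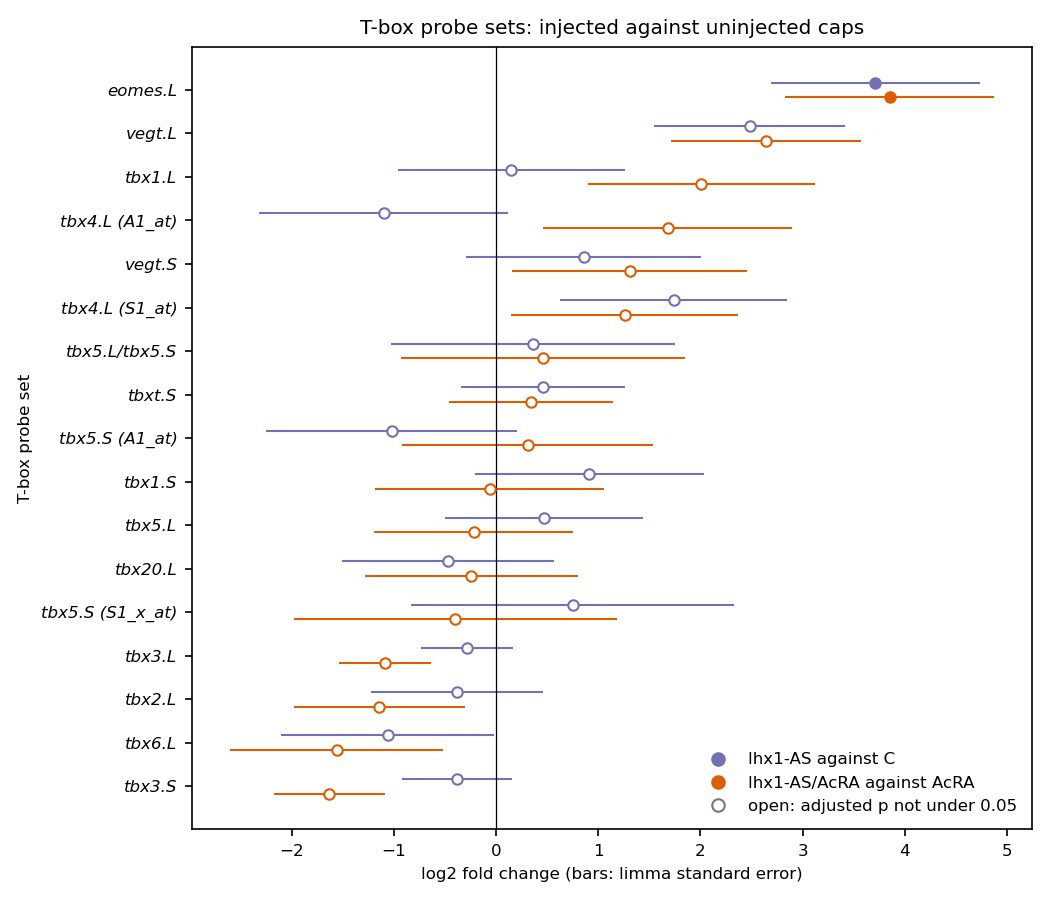
Log2 fold change (points, bars are limma standard errors) of each of the 17 T-box probe sets in lhx1-AS against C and in lhx1-AS/AcRA against AcRA, ordered by the latter, with filled points at adjusted p under 0.05. In this fit, without the experiment as a block, only eomes.L is filled, in both comparisons.

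For eomes.L and vegt.L the lhx1-AS/AcRA arrays lay highest and the AcRA arrays next, with no overlap between these groups or with the untreated ones. C and lhx1-AS cannot be ordered, since arrays of both lay at or under the tags, whose highest signal was 33.7 to 50.6 in C and 42.2 to 69.8 in lhx1-AS. For tbx3.S the means ran from 1411 ± 514 in C over 1099 ± 399 in lhx1-AS and 391 ± 244 in AcRA to 106 ± 35.2 in lhx1-AS/AcRA (SD, n = 3), and both C with lhx1-AS and AcRA with lhx1-AS/AcRA overlapped. Over the 12 arrays, which share the same groups, the log2 signals of eomes.L and vegt.L had r = 0.95, those of tbx3.S and vegt.L r = -0.91, and those of the pair tbx3.L and tbx3.S r = 0.78.

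Other genes with a similar course over the 12 arrays were listed by Pearson correlation of log2 signal, as a description. The 3 nearest to vegt.L were hao1 (r = 0.978), dact4 (0.969) and sp5l (0.964), and those nearest to eomes.L were emid1 (0.958), zic1 (0.95) and vegt itself (0.946). tbx1.L was nearest to gpx3 (0.97), ripply2.2 (0.958) and fam102a (0.954). Among the repressors, tbx3.L was nearest to aspg (0.976), id2 (0.962) and ctbs (0.96), tbx3.S to tmed4 (0.954), cetn4 (0.953) and tsga10 (0.948), and tbx2.L to bambi (0.922), an inhibitor of TGF-beta and BMP receptors, arhgap23 (0.919) and foxn4 (0.914).

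Genomic neighbours among the T-box genes were also set side by side, as a description. All 16 gene identifiers of the probe sets were found in the RefSeq annotation of the frog assembly Xenopus_laevis_v10.1. There, tbx3 and tbx5 lie next to each other with 0 protein-coding genes between them on both homeologous chromosomes, as do tbx4 and tbx2. Other kinds of gene were not counted. tbx3.S was high in untreated caps and fell, while the tbx5 probe sets stayed between 0.513 and 60.8. tbx2.L was likewise above its tags on all 6 untreated arrays, and the 2 tbx4.L probe sets stayed between 1.55 and 74.1.

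The T-box genes mga, tbr1, tbx15, tbx18, tbx21 and tbx22 of that annotation had 0 probe sets under their own symbols on the array and were not analysed. A pair of T-box relatives had symbols outside the rule. tbx6r.L, next to tbx6.L, read 1.73, 1.59 and 4.37 in C and 47.5, 58.6 and 48.6 in lhx1-AS, with 16.9, 47.3 and 13.3 in AcRA and 1.82, 17.2 and 16.2 in lhx1-AS/AcRA. It exceeded its tags on 2 of 3 lhx1-AS arrays, on 1 AcRA array and on no other, so no fold is given. Its log2 fold change was 4.49 in lhx1-AS against C (SE 0.98, limma adjusted p = 0.0145), and that call was lost without C I (adjusted p = 0.0533), lhx1-AS II (0.0505) or lhx1-AS III (0.0504). Its difference of AcRA responses was -5.95 (SE 1.38, limma adjusted p = 0.0927, 0.0413 with the block). tbxt.2.S, a paralogue of Brachyury next to tbxt.L, read 1.68, 2.62 and 5.72 in lhx1-AS and 47.4, 57.3 and 14.2 in lhx1-AS/AcRA. Its lhx1-AS arrays were all under their tags and 2 of 3 lhx1-AS/AcRA arrays above. That rise passed (3.53, SE 0.82, limma adjusted p = 0.013) and was lost without lhx1-AS/AcRA I (adjusted p = 0.0636) or II (0.0731). It was lost also after adding 64 (adjusted p = 0.0645), in the fit of the compared groups only (0.089) and by the methods' t-test (0.193 adjusted). In AcRA tbxt.2.S read 22.7, 63.5 and 40.5, above its tags on 3 of 3 arrays. Its mean in C was 12.6, with no array above. AcRA against C (1.64), lhx1-AS/AcRA against AcRA (-0.2) and lhx1-AS against C (-2.08) did not pass the limma test.

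Known targets of the mesendodermal T-box factors were measured beside them, as a list of genes that T-box factors are known to regulate in frog or mouse embryos. Of its 25 measured genes, 9 rose and 0 fell in AcRA against C (3.09% and 2.62% of all probe sets), with a list median of 2.03 on the log2 scale against 0.01 over all probe sets. Raised to the tags, the list median was 0.14, and fgf4 was never above the tags. With the block 11 rose and 0 fell, against 5.29% and 5.14% of all. The 4 largest were pcdh8.2, a protocadherin of paraxial mesoderm, at 8.44 (at least 139-fold, SE 1.13, limma adjusted p = 0.000307), the posterior homeobox gene cdx4 at 8.2 (at least 34.5-fold, SE 1.06, adjusted p = 0.000268), the Wnt ligand gene wnt8a at 7.30 (at least 74.4-fold, SE 0.64, adjusted p = 1.67e-05), and mespa, a segmentation factor, at 5.44 (at least 6.88-fold, SE 1.01, adjusted p = 0.00377). In lhx1-AS/AcRA against lhx1-AS 11 rose and 0 fell, against 4.0% and 4.09% of all, with a median of 3.06, or 1.53 raised to the tags. With the block 18 rose and 1 fell, against 6.34% and 6.64% of all. The 11 held the endoderm genes darmin at 9.73 (at least 133-fold, SE 0.78) and gata4 at 7.43 (at least 27.2-fold, SE 0.81), and mixer, a homeobox gene of endoderm, at 5.21 (at least 1.62-fold, SE 1.14).

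On the arrays labelled lhx1-AS/AcRA against AcRA, 4 of the 25 targets rose and 1 fell, against 2.7% and 6.94% of all probe sets, and 5 and 3 with the block, against 6.98% and 11.9%. Those that rose were the endoderm regulators gata4 (4.73, SE 0.81, limma adjusted p = 0.00191) and gata5 (2.70, SE 0.66, adjusted p = 0.0186), the homeobox gene bix1.2 (4.68, at least 6.12-fold, SE 1.18, adjusted p = 0.0213), a Vegt target, and darmin (4.18, SE 0.78, adjusted p = 0.00359). The one that fell was wnt8a (-2.29, SE 0.64, adjusted p = 0.0375), whose mean signal was 2953 in AcRA and 723 in lhx1-AS/AcRA. In lhx1-AS against C 0 rose and 1 fell, against 2.52% and 4.47% of all, namely the endoderm regulator gata6 (-1.10, SE 0.28, adjusted p = 0.0285).

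Partners and corepressors of T-box factors formed a list with 15 measured genes. With the block 5 rose and 1 fell in AcRA against C, against 5.29% and 5.14% of all probe sets. Without it 3 rose and 0 fell, where 3.09% and 2.62% of all were called. ripply2.2, whose product is a corepressor bridging T-box factors to Groucho proteins, rose by 6.85 on the log2 scale (at least 30.8-fold, SE 0.76, limma adjusted p = 8.31e-05) and in lhx1-AS/AcRA against lhx1-AS by 8.31 (at least 61.4-fold, SE 0.76, adjusted p = 7.45e-06). Its mean signal was 14.8 in C, 1224 in AcRA, 12.0 in lhx1-AS and 3374 in lhx1-AS/AcRA. The zinc finger gene sall1 (2.22, SE 0.39, adjusted p = 0.00251) and the Groucho family gene tle5 (1.28, SE 0.28, adjusted p = 0.0131) were the others. With AcRA in injected caps 3 rose and 0 fell, adding ripply2.1 (2.55, at least 3.06-fold, SE 0.75, adjusted p = 0.0498) to ripply2.2 and sall1. In that comparison 4.0% and 4.09% of all probe sets were called higher and lower.

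The Oct4-related genes pou5f3.2 (2.06, SE 0.55, limma adjusted p = 0.0291) and pou5f3.1 (1.21, SE 0.24, adjusted p = 0.00567) were the 2 of 15 that rose in lhx1-AS/AcRA against AcRA, where 0 fell. Of all probe sets 2.7% were called higher there and 6.94% lower. In lhx1-AS against C 0 rose and 1 fell, max (-0.97, SE 0.23, adjusted p = 0.0203), whose protein is the DNA-binding partner of the T-box protein Mga. Without the block 2.52% and 4.47% of all probe sets were called higher and lower in that comparison. With the block, 4 rose and 2 fell in it, against 7.41% and 10.4% of all.

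Of activin and nodal signalling, 20 genes were measured, of which nodal3.1, gdf1 and smad3 were never above the tags. With the block 5 rose and 1 fell in AcRA against C, against 5.29% and 5.14% of all probe sets. Without it 3 rose and 1 fell, where 3.09% and 2.62% of all were called. The ligand gene nodal1 rose at least 18.5-fold (log2 fold change 7.58, SE 0.83, limma adjusted p = 7.87e-05), and smad7, an inhibitor of the pathway, was the one that fell (-1.32, SE 0.29, adjusted p = 0.0128). With AcRA in injected caps 5 rose and 1 fell, against 4.0% and 4.09% of all. With the block 6 rose and 1 fell there, against 6.34% and 6.64%. Between the treated groups, lhx1-AS/AcRA against AcRA, 4 rose and 1 fell with the block, against 6.98% and 11.9% of all. Without it 3 rose and 1 fell, against 2.7% and 6.94% of all. The antagonist genes lefty (5.02, at least 25.0-fold, SE 0.79, adjusted p = 0.00111) and cer1 (3.02, SE 0.78, adjusted p = 0.0241) and the co-receptor gene tdgf1.3 (2.90, SE 0.60, adjusted p = 0.00659) were higher. The activin receptor gene acvr2b was lower (-1.52, SE 0.24, adjusted p = 0.00112). In lhx1-AS against C 1 rose and 1 fell, against 2.52% and 4.47% of all, namely tdgf1.3 (4.35, SE 0.60, adjusted p = 0.00101) and acvr2b (-1.19, SE 0.24, adjusted p = 0.0099). lefty was the 1 gene of this list called in the difference of responses (6.94, SE 1.12, adjusted p = 0.0128). Of all probe sets 0.168% were called higher there and 0.271% lower. The size of the lefty value cannot be read, since its mean signals of 9.55 in C and 2.13 in lhx1-AS lay under the tags.

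For the settings in which tbx5 and tbx20 act, the list of heart and lateral plate genes had 17 measured members. Of these, tnnt2 was never above the tags. 3 rose and 3 fell in AcRA against C, including hand1, a factor of lateral mesoderm (4.03, at least 5.54-fold, SE 1.02, limma adjusted p = 0.0294), and nkx2-3, a homeobox gene, at -7.21 (at least 39.9-fold lower, SE 0.79, adjusted p = 7.93e-05). In lhx1-AS/AcRA against lhx1-AS 3 rose and 4 fell, in lhx1-AS/AcRA against AcRA 2 rose and 1 fell, and in lhx1-AS against C 0 rose and 1 fell. Over all probe sets, 3.09% and 2.62% were called higher and lower in AcRA against C. The shares were 4.0% and 4.09% in lhx1-AS/AcRA against lhx1-AS, 2.7% and 6.94% in lhx1-AS/AcRA against AcRA, and 2.52% and 4.47% in lhx1-AS against C. With the block this list had 3 and 5, 5 and 4, 3 and 2, and 0 and 2, in that order. The block shares over all were 5.29% and 5.14%, 6.34% and 6.64%, 6.98% and 11.9%, and 7.41% and 10.4%. Of 17 early kidney genes 5 rose and 1 fell in AcRA against C and 5 rose and 1 fell in lhx1-AS/AcRA against lhx1-AS, lhx1 among those that rose in both (6.93, at least 15.2-fold, and 7.68, at least 24.0-fold, both SE 1.05). In lhx1-AS/AcRA against AcRA 2 rose and 0 fell, and in lhx1-AS against C 1 rose and 0 fell. With the block the kidney counts were 7 and 1, 6 and 1, 2 and 1, and 1 and 0, in that order. The kidney gene ret was never above the tags. The shares over all probe sets are those given above for each comparison.

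**Figure D4:**
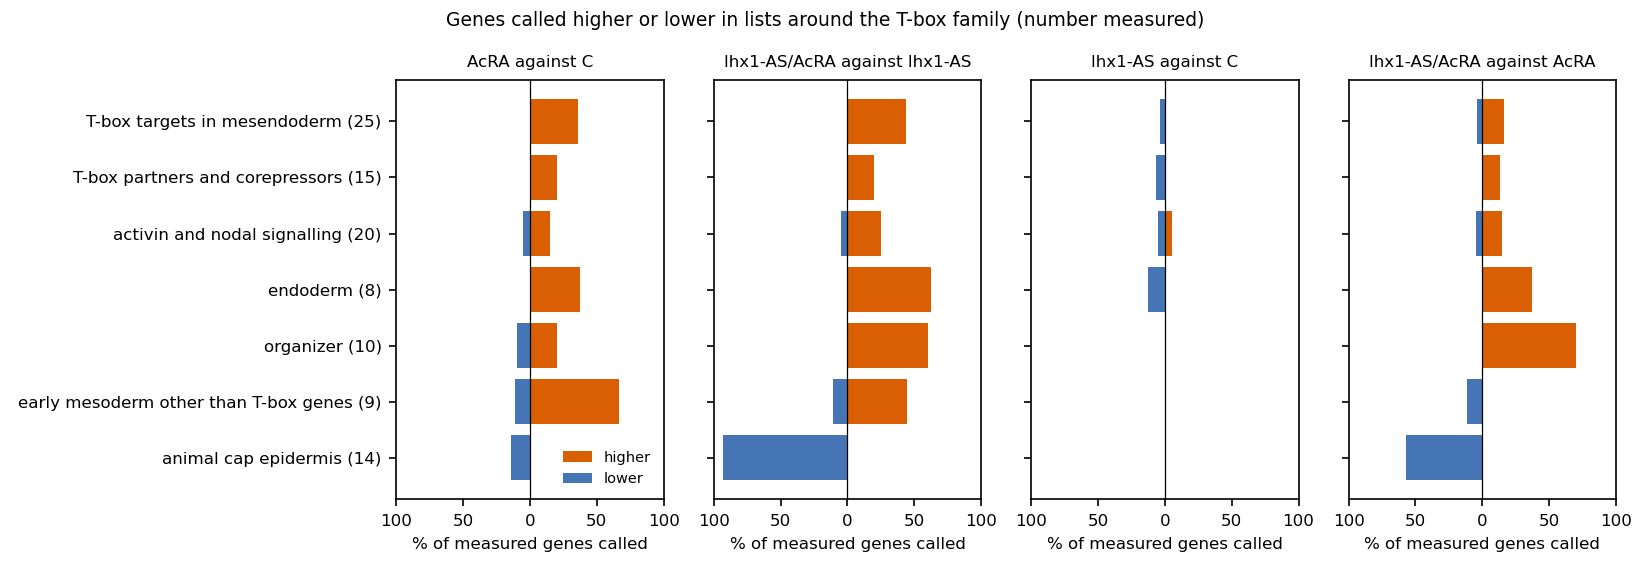
Share of the measured genes of 7 lists called higher (right, %) or lower (left, %) at limma adjusted p under 0.05 in 4 comparisons, with the number of measured genes beside each name. T-box targets were called higher in 9 of 25 with AcRA and 11 of 25 with AcRA in injected caps, and epidermal markers were called lower in 13 of 14 in the latter. Over all probe sets 3.09% were called higher with AcRA, and 4.0% higher and 4.09% lower with AcRA in injected caps. These shares include dim probe sets, while each list gene stands for its brightest probe set.

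Markers of other cell types were set beside the T-box genes, and the lists went different ways. The summed signal of the 8 measured endoderm markers was 1098 to 1905 in C, 6335 to 10367 in AcRA, 604 to 1773 in lhx1-AS and 18091 to 23608 in lhx1-AS/AcRA, and 3 of 8 rose in lhx1-AS/AcRA against AcRA. For the 10 organizer markers it was 268 to 656, 938 to 2309, 996 to 1414 and 12779 to 23705 in the same order, and 7 of 10 rose in that comparison, while nog was never above the tags. The 14 epidermal markers summed to 59701 to 63249, 37279 to 47947, 54408 to 54673 and 3859 to 16168, and 8 of 14 fell. Over all probe sets 2.7% were called higher and 6.94% lower in lhx1-AS/AcRA against AcRA. The part of these markers in the T-box results was not tested, and in pooled caps fewer cells of a type and less RNA per cell cannot be told apart. Markers of early mesoderm other than T-box genes summed to 7029.9 to 9504 in C, 8817 to 10535 in AcRA, 6529 to 8729.7 in lhx1-AS and 4218 to 6542 in lhx1-AS/AcRA, with fgf4 never above the tags. In every list such a sum of linear signals is weighted to the brightest genes, unlike the counts. Of these 9 markers 6 rose and 1 fell in AcRA against C (median 4.82 on the log2 scale, 2.78 raised to the tags), and 4 rose and 1 fell in lhx1-AS/AcRA against lhx1-AS. Of all probe sets 3.09% and 2.62% were called higher and lower in the former, and 4.0% and 4.09% in the latter. Between lhx1-AS/AcRA and AcRA 0 rose and 1 fell (median -1.26). In lhx1-AS against C 0 were called, against 2.52% higher and 4.47% lower of all probe sets.

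Of the 4 muscle markers, acta1 was never above the tags. The 4 summed to 40.4 to 108 in C, 113 to 482 in AcRA, 47.5 to 122 in lhx1-AS and 93.6 to 228 in lhx1-AS/AcRA. Without the block 0 of them were called in any comparison, and with it 1 was higher in AcRA against C, 1 lower in lhx1-AS/AcRA against AcRA and 1 higher in lhx1-AS/AcRA against lhx1-AS. The block called 5.29% of all higher in AcRA against C, 11.9% lower in lhx1-AS/AcRA against AcRA and 6.34% higher in lhx1-AS/AcRA against lhx1-AS. The 2 cement gland markers, of a tissue in which tbx3 is expressed in the frog, summed to 2049 to 4879 in C, 55.2 to 117 in AcRA, 3209 to 6399 in lhx1-AS and 94.7 to 121 in lhx1-AS/AcRA, and 1 of 2 fell with AcRA in both treatment comparisons. The 8 neural plate markers summed to 819 to 1187, 1098 to 2299, 1671 to 2997 and 5381 to 6729 in the same order, with 2 of 8 higher and 1 lower in lhx1-AS/AcRA against AcRA. The 8 heart and blood markers summed to 1919 to 2393, 927 to 1499, 1584 to 1959.7 and 678 to 949, with 1 of 8 higher and 1 lower in AcRA against C. Among them tnnt2 was never above the tags. Without the block, 3.09% and 2.62% of all probe sets were called higher and lower in AcRA against C. The shares were 4.0% and 4.09% in lhx1-AS/AcRA against lhx1-AS, and 2.7% and 6.94% in lhx1-AS/AcRA against AcRA. The part of these markers in the T-box results was likewise not tested.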

How the data were processed

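The authors deposited 1 intensity per probe set for 12 arrays (Affymetrix Xenopus laevis array, 1st generation), as linear GCOS signals scaled to 1 common trimmed mean (2% off each end), with no detection calls. For GCOS, a version was not given in the sources used here. Precision is limited by the number of arrays and by signal over background. Labels and methods name different RNA extraction reagents.

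From these intensities, 555 signals under 1 (0.298%) were set to 1 and log2 was taken. Leaving out 108 control probe sets, 15503 were fitted with limma 3.58.1 in R 4.3.3 (4 group means, variance trend, 8 residual degrees of freedom), with Benjamini-Hochberg adjustment over all of them at 0.05. Gene symbols came from the platform annotation, which gave 1 symbol to 9304 probe sets, several to 195 and none to 6112. Errors are limma's standard errors or standard deviations of 3 arrays. A fold is 2 to the power of the difference of group means of log2 signal. The fit was tested on simulated data with independent normal noise of the estimated spread. These had no signals set to 1 and no pairing by experiment, so they do not test calls that depend on either. Nothing says that arrays of a group came from separate clutches, so p-values measure the spread between these arrays.

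Every member is reported. Members called in a comparison have every array value, each list up to 4 called genes per comparison (represented by the brightest probe set), and members called in a treatment comparison the 3 genes most correlated. Members, lists and tests were chosen with earlier results of these data known, and list genes may overlap between lists. Values from arrays of the same experiment but different groups deviated together from their group means (r from 0.152 to 0.269 in 18 pairs, against -0.19 to -0.00368 in 36 other pairs), so the experiment number of the labels pairs the arrays.

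As alternatives, experiment was added as a block, arrays were quantile normalized or brought to 1 median, 16 or 64 was added to the signals, the dimmest 40% were dropped, the variance trend was omitted, only the groups compared were fitted, the methods' t-test was run, and each array was left out in turn. The t-test was run on log2 signals and without the fold cut-offs of the methods. Raising signals to the tags was added after the data had been seen.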

Additional observations from a re-analysis of the deposited data

How the results depend on the processing

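Over 29 single T-box results under the alternatives, 533 values of 620 kept their direction and their side of the threshold, 54 lost the call, 33 gained it and 0 turned direction. The cause of the lost and gained calls was not tested. The block, the omitted trend, the fit of the compared groups only, the t-tests and the dim filter leave a log2 fold change as it is. So does leaving out an array of a group not compared. Direction could not turn in these settings. Counts of called T-box probe sets follow, for AcRA against C (4), lhx1-AS/AcRA against AcRA (1), lhx1-AS against C (1), lhx1-AS/AcRA against lhx1-AS (6) and the difference of responses (0). Leaving out 1 array gave 3 to 5, 0 to 2, 0 to 1, 4 to 6 and 0 to 0. Over all 15503 probe sets, these fits called 336 to 560 higher and 227 to 460 lower in AcRA against C. The ranges were 204 to 498 and 593 to 1230 in lhx1-AS/AcRA against AcRA, and 141 to 441 and 309 to 813 in lhx1-AS against C. They were 469 to 616 and 473 to 626 in lhx1-AS/AcRA against lhx1-AS, and 15 to 30 and 19 to 90 in the difference. The replicate block gave 3 in lhx1-AS/AcRA against AcRA and 2 in lhx1-AS against C, and changed no other call among the 17 than those given above. It called 6.98% of all probe sets higher and 11.9% lower in the former, and 7.41% and 10.4% in the latter. Adding 16 or 64 gave 3 in lhx1-AS/AcRA against AcRA and 0 in lhx1-AS against C. Of all 15503, adding 16 called 496 higher and 1213 lower in the former, and 438 and 862 in the latter. After adding 64 these were 541 and 1185, and 447 and 953. The fit without a trend gave 0 in both of these comparisons, and the compared groups alone gave 3 and 0. Of all 15503, the fit without a trend called 272 higher and 768 lower in the former comparison, and 156 and 414 in the latter. For the compared groups alone these were 428 and 983, and 232 and 578. The methods' t-test called 0, 0 and 0 after adjustment in the first 3 comparisons and 1 in lhx1-AS/AcRA against lhx1-AS. Of all 15503 it called 36 higher and 24 lower in AcRA against C, and 31 and 15 in lhx1-AS/AcRA against lhx1-AS. In lhx1-AS/AcRA against AcRA and in lhx1-AS against C it called 0 of all, so its 0 there is not particular to the T-box genes. Unadjusted at the methods' p threshold, without their fold cut-offs, it called 4 in lhx1-AS/AcRA against AcRA and 0 in lhx1-AS against C. Of all 15503 it then called 1287 higher and 1824 lower in the former, and 1149 and 1466 in the latter.

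Scaling to 1 median moved the median of all probe sets by 0.24 in both lhx1-AS/AcRA against AcRA and lhx1-AS against C on the log2 scale. Of the 17 probe sets, 10 were above the tags on all arrays of no group. For each of these, at least 1 array of every group cannot be told from background. Single arrays could lie well above it, as tbx6.L did at 306 in AcRA II and 193 in AcRA III. In lhx1-AS/AcRA against lhx1-AS the fit of the compared groups only gave 4 (tbx2.L and tbx3.L lost), and leaving out the trend gave 5 (tbx2.L lost). Of all 15503 the former called 520 higher and 434 lower, and the latter 519 and 496.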
